A study of Mus musculus with 2 samples.

Results

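Adventitial fibroblasts were sought in 2 single-cell RNA libraries of CD45- cells from mouse lung, and 494 of the 4687 cell barcodes were chosen as such. The cells were chosen by measured counts. A cell first needed at least 500 genes and at most 10% mitochondrial UMIs (unique molecular identifiers, each standing for 1 captured RNA molecule). It then needed at least 4 UMIs over Col1a1, Col1a2, Col3a1, Bgn and Dcn, and more of these than of the endothelial genes Pecam1, Cdh5, Cldn5 and Egfl7. Last, the sum of Pi16, Serpinf1, Clec3b, Dpt, Cd248 and Col14a1, called the adventitial sum here, had to reach 4 UMIs and to exceed each of the sums that marked alveolar fibroblasts, myofibroblasts and pericytes. The levels of these genes are therefore a description of the choice.

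Adventitial fibroblasts lie in the loose connective tissue cuffs around the airways and larger vessels of the lung, while alveolar fibroblasts lie in the thin walls of the air sacs. Pi16, a secreted protein of the CAP family, and Col14a1, a fibril-associated collagen, are known to mark adventitial fibroblasts in many tissues. In the lung these cells are known as a source of the alarmin Il33 and of chemokines, and as a niche for lymphocytes and dendritic cells.

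Both libraries came from lungs taken 7 days after Labelling-4T1 cells were injected into the vein, so the 2 groups share this exposure and no group without it was analysed here. 4T1 is a mouse mammary carcinoma line. As background, labelling cancer cells of this kind release a cell-permeable mCherry protein that neighbouring cells take up. The library Cherry_Positive and the library Cherry_Negative were sorted by FACS from dissociated lung and made with 3′ single-cell chemistry. The labels name tissue (Lung) and cell type (CD45-) and give no strain, age, sex, number of mice or irradiation for either library, although the series title speaks of radiation. Each group was 1 library, so no difference below has a replicate check or a test. Intervals are 95% and cover counting error only. UMIs were summed over the chosen cells of a library and divided by all UMIs of those cells to give CPM, the usual library-scaled count. A difference is given as a ratio of CPM with an exact binomial counting interval, and a gene was counted as higher or lower where the ratio was at least 2-fold.

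Cherry_Positive held 1826 barcodes with 10094853 UMIs and Cherry_Negative 2861 barcodes with 11632459 UMIs, of which 1770 and 2811 passed the cell filter. The libraries shared 13 barcode sequences, none of them among the chosen cells. The chosen cells were deeper in Cherry_Positive, with a median of 5592.5 UMIs against 4542. Type 2 alveolar epithelial RNA was spread over the chosen cells of Cherry_Negative: the type 2 marker list summed to 1635 CPM there and 153 CPM in Cherry_Positive over the Pi16 group defined below, and 95.2% against 14.9% of those cells had at least 3 of its UMIs.

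The chosen cells were 316 of 1770 in Cherry_Positive, 17.9% (exact interval 16.1 to 19.7), and 178 of 2811 in Cherry_Negative, 6.33% (5.46 to 7.30). Over mesenchymal cells alone the shares were 23.6% (21.3 to 26.0) of 1339 cells and 23.6% (20.6 to 26.8) of 754 cells. The first pair of shares moved with endothelial cells, which were 253 cells in Cherry_Positive and 1518 in Cherry_Negative. The sort that made the libraries can set such shares.

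The label held for a part of the chosen cells. Clec3b, which codes for the plasminogen-binding protein tetranectin, gave over 50% of the adventitial sum in 142 cells of Cherry_Positive and 88 of Cherry_Negative. Dpt, which codes for the matrix protein dermatopontin, did so in 48 and 5 cells. No UMI of Pi16, Serpinf1, Cd248 or Col14a1 was found in 100 and 36 of the chosen cells. Clec3b and Dpt were also found in alveolar fibroblasts, at 786 and 372 CPM in Cherry_Positive and at 1590 and 320 CPM in Cherry_Negative. The cells were therefore divided, after these values had been seen.

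Cells with at least 4 UMIs over Pi16, Serpinf1, Cd248 and Col14a1 are called the Pi16 group and numbered 134 in Cherry_Positive and 105 in Cherry_Negative. Cells with fewer are called the Clec3b and Dpt group and numbered 171 and 57. Cells with 25 or more UMIs of the markers of 1 other lineage, 11 and 16, are called mixed cells and stand in neither. The mixed cells carried mesothelial markers in 6 and 7 cells, and the others held endothelial, epithelial, leukocyte or carcinoma-like markers. The Pi16 group was 42.4% (36.9 to 48.1) of the chosen cells of Cherry_Positive and 59.0% (51.4 to 66.3) of those of Cherry_Negative. Results are given for the Pi16 group unless another group is named.

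**Figure D1:**
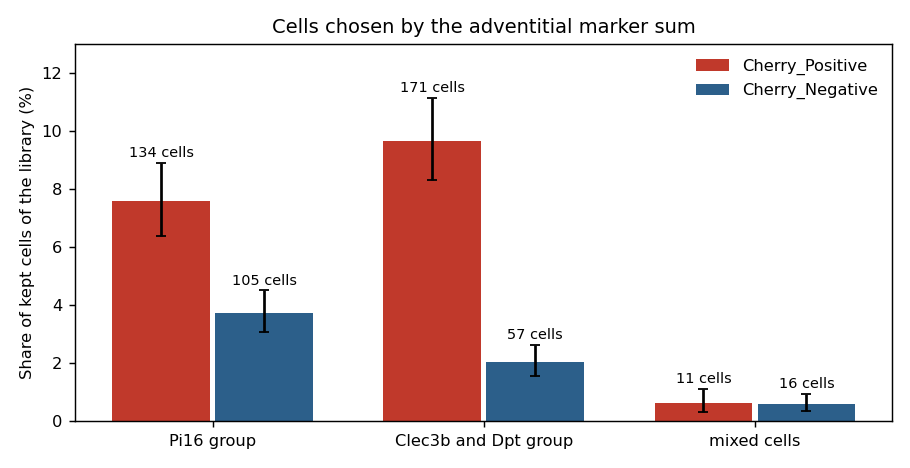
Bars give the share of the kept cells of each library (%) in the Pi16 group, the Clec3b and Dpt group and the mixed cells, with exact 95% binomial intervals. The Pi16 group was 7.57% of kept cells in Cherry_Positive and 3.74% in Cherry_Negative, and the Clec3b and Dpt group 9.66% and 2.03%.

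At the limit of the rule, 39 cells of Cherry_Positive and 9 of Cherry_Negative had an adventitial sum of exactly 4 or 1 UMI above the next sum. Just outside, 46 and 6 cells had a sum of 3 that was largest, or a sum of at least 4 that was tied with the next. In Cherry_Positive, Clec3b stood at 739 CPM just inside and 394 CPM just outside, and Dcn at 418 and 141 CPM. Dpt stood at 396 and 350 CPM there. In Cherry_Negative, Clec3b and Dpt went the other way, at 1800 and 536 CPM just inside and 2123 and 762 CPM just outside. Dcn stood at 1685 and 54.4 CPM there, and these levels rest on 9 and 6 cells. Pi16 gave 3 UMIs just inside and 5 just outside in Cherry_Positive, so the cells at the limit were chosen through Clec3b and Dpt.

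The marker genes separated the Pi16 group from the other chosen cells in both libraries. Pi16 (chr17:29317680-29330593, plus strand, GRCm38) stood at 1633 CPM in Cherry_Positive and 2004 CPM in Cherry_Negative in the Pi16 group, and at 22.9 and 27.4 CPM in the Clec3b and Dpt group. Dcn, which codes for the small proteoglycan decorin, stood at 6608 and 8666 CPM against 603 and 663 CPM. Ccl11, the eosinophil chemokine eotaxin, stood at 1044 and 489 CPM against 126 and 91.5 CPM. Sfrp4, a secreted Wnt antagonist, stood at 335 and 81.1 CPM against 0 and 4.57 CPM. The 4 genes Pi16, Serpinf1, Cd248 and Col14a1 defined the division and so are no finding, whereas Dcn, Ccl11 and Sfrp4 are outside it but come from the same cells. Dcn was also among the genes by which cells were first taken as mesenchymal, so it is not outside the rule. The alveolar marker list summed to 3053 and 5974 CPM in the Pi16 group, 7802 and 17227 CPM in the Clec3b and Dpt group, and 14274 and 34268 CPM in alveolar fibroblasts. The Clec3b and Dpt group thus lay between the others on alveolar markers and is given no cell type name here. That list holds the genes of the sum that marked alveolar fibroblasts. Lower levels than in alveolar fibroblasts were therefore in part set by the choice.

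**Figure D2:**
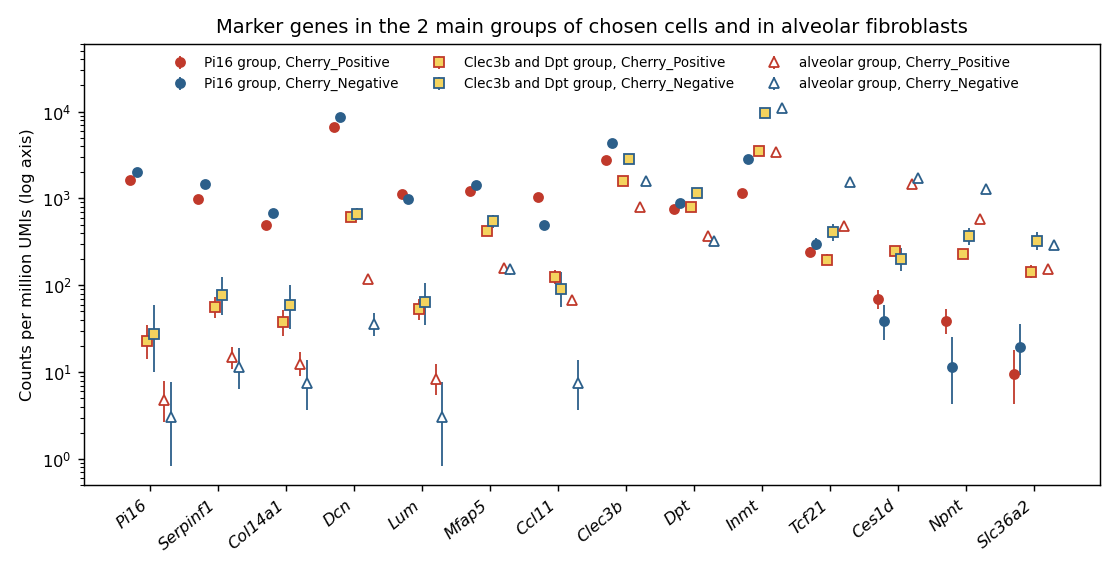
Points give the level of marker genes in CPM (log axis) in the Pi16 group, the Clec3b and Dpt group and alveolar fibroblasts of each library, with 95% counting intervals. Pi16 was at 1633 and 2004 CPM in the Pi16 group and at 22.9 and 27.4 CPM in the Clec3b and Dpt group.

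A set of genes outside the rule shared the pattern of Pi16. Among 6685 genes, 19 (0.284%) were at least 4-fold higher in the Pi16 group than in alveolar fibroblasts, myofibroblasts and pericytes in both libraries. The rule genes Pi16, Serpinf1 and Col14a1 were among them. After Pi16 and Serpinf1, the next by the smallest of the 6 ratios were Ccl11 at 11.8, Aqp1 (a water channel) at 7.93, Entpd2 (an ectonucleotidase) at 7.70, Mmp3 (stromelysin, a matrix metalloproteinase) at 7.11 and Htra3 (a serine protease) at 6.83. Entpd2 stood at 201 and 319 CPM, and Mmp3 at 755 and 490.4 CPM, in the Pi16 groups of Cherry_Positive and Cherry_Negative. Aqp1, which endothelial and mesothelial cells also express, stood at 355 and 339.8 CPM. For all chosen cells the count was 11 of 9017 genes (0.122%), and it was 1 for the Clec3b and Dpt group. All these ratios come from the cells the rule chose and describe them.

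The 2 groups of chosen cells also differed in genes beyond their markers. Of 7840 genes, 66 (0.842%) were at least 4-fold higher in the Pi16 group than in the Clec3b and Dpt group in both libraries. Among them, Ackr3, a scavenging receptor for Cxcl12, stood at 169 and 131 CPM in the Pi16 group of Cherry_Positive and Cherry_Negative and at 1.04 and 4.57 CPM in the Clec3b and Dpt group. Scara3, a scavenger receptor, stood at 82.9 and 90.7 CPM against 1.04 and 4.57 CPM, and Twist2, a transcription factor of mesenchyme, at 65.0 and 86.9 CPM against the same 1.04 and 4.57 CPM, which are 1 UMI each. In the other direction 43 genes (0.548%) were at least 4-fold higher in the Clec3b and Dpt group. Slc36a2, an amino acid transporter, stood at 143 and 325 CPM there, 9.44 and 19.3 CPM in the Pi16 group, and 154 and 289 CPM in alveolar fibroblasts. Col13a1, a membrane collagen known from alveolar fibroblasts, stood at 155 and 192 CPM there, 18.9 and 29.0 CPM in the Pi16 group, and 307 and 441 CPM in alveolar fibroblasts. These genes were picked for their difference between the 2 groups, which is therefore a description.

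Within the Pi16 group the genes of the adventitial sum were each lower in Cherry_Positive by less than 2-fold. Serpinf1, which codes for the antiangiogenic factor PEDF, stood at 987 against 1469 CPM and was 1.49-fold lower. Pi16 itself was 1.23-fold lower and Col14a1, at 489.9 against 674 CPM, was 1.38-fold lower. A minimum in UMIs asks for a higher CPM in a shallower cell, and the median depth of the group was 6487 UMIs in Cherry_Positive and 4579 in Cherry_Negative. The part of depth in these ratios was not tested. Of 24 other genes of the adventitial niche that were measured, 2 were higher (Sfrp4 and Ccl11) and 1 was lower (Igfbp6). Lum, which codes for the proteoglycan lumican, was at 1134 and 973 CPM, and Mfap5, a microfibril protein, at 1213 and 1419 CPM. Over all chosen cells 1 of 25 niche genes was higher (Sfrp4) and 4 were lower (Igfbp6, Dpp4, Entpd2 and Scara5), with a median log2 ratio of -0.50 against -0.14 in the Pi16 group.

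Between libraries, 209 of the 5338 genes with at least 30 UMIs in the Pi16 group were at least 2-fold higher in Cherry_Positive (3.92%) and 158 were lower (2.96%). Over all chosen cells, 404 of 7840 were higher (5.15%) and 345 lower (4.4%). Of the 5338 genes measured in both, 172 were higher over all chosen cells, and 129 of these were also higher in the Pi16 group, which is 75% of the first list and 61.7% of the second. For lower genes 88 were shared, 54.7% of 161 and 55.7% of 158. In the Clec3b and Dpt group 407 of 4715 genes were higher (8.63%) and 217 lower (4.6%). Of the 404 higher genes, 13 had over 50% of their UMIs in 1 cell, 7 were seen in under 10 cells, and 149 stood higher outside the mesenchymal cells of Cherry_Positive than in the chosen cells.

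**Figure D3:**
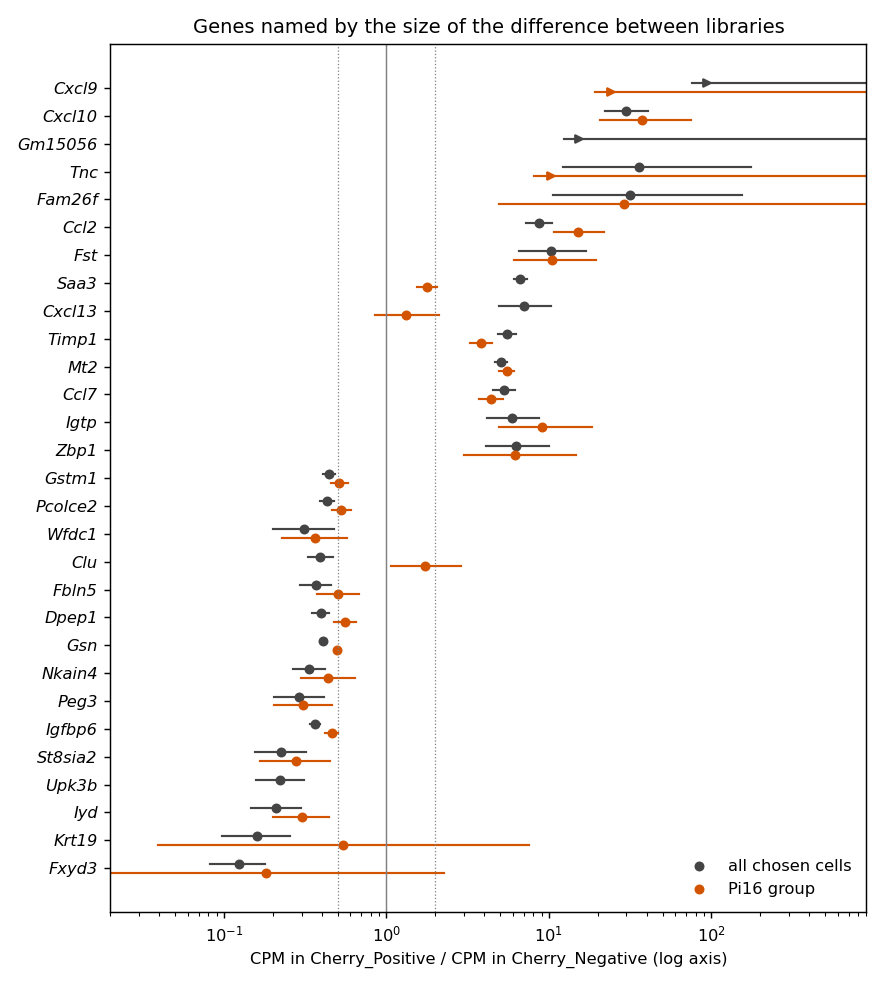
Points give the ratio of CPM in Cherry_Positive over Cherry_Negative (log axis) for 14 of the 15 genes highest and the 15 lowest by the bound of the interval nearest 1, for all chosen cells and for the Pi16 group, with 95% counting intervals that stop at the edges of the plot. Triangles are lower bounds against a floor of 3 counts, and Gm15056 and Upk3b have no ratio in the Pi16 group; Cxcl10 lay at 29.7 and 37.3, and Clu crossed from 2.55-fold lower to 1.72-fold higher.

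Interferon-responsive genes were the list with the most members higher in Cherry_Positive. Lists were counted over genes with at least 10 UMIs, of which 7.21% were at least 2-fold higher and 7.38% lower in the Pi16 group (7.07% and 7.97% over all chosen cells), with a median log2 ratio of -0.06. Of 16 measured genes of the interferon gamma response 12 were higher and none was lower in the Pi16 group, with a median log2 ratio of 2.01. Over all chosen cells 14 of 18 were higher, with a median of 1.85. Of 20 genes of the type I interferon response, 14 were higher and none lower, with a median log2 ratio of 1.75. In the Clec3b and Dpt group 12 of 17 interferon gamma response genes (median log2 ratio 1.80, or 1.36 with genes at 0 UMIs set to their bound) and 7 of 20 type I response genes (0.66 and 0.64) were higher.

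Igtp, an immunity-related GTPase, stood at 192 CPM in Cherry_Positive and 21.2 CPM in Cherry_Negative in the Pi16 group, 9.04-fold higher (4.93 to 18.4). Isg15, a ubiquitin-like protein induced by interferon, stood at 442 and 56.0 CPM, 7.89-fold higher (5.41 to 11.9). The UMIs of Isg15 came from 56 of 134 cells in Cherry_Positive and 16 of 105 in Cherry_Negative. Zbp1, a sensor of nucleic acids, was 6.18-fold higher (3.01 to 14.7), at 95.5 and 15.4 CPM. Iigp1, another GTPase of this family, stood at 622 and 139 CPM, 4.47-fold higher (3.50 to 5.80). The guanylate-binding protein genes Gbp2 and Gbp4 were 3.39-fold (2.34 to 5.06) and 7.53-fold (3.52 to 19.2) higher. Ifit3 and Ifit3b, and Tgtp1 and Tgtp2, are near-identical neighbours, so the split of reads between them is uncertain. The Gbp genes are related members of a family, and reads may be shared among the closest of them. Irf1, a transcription factor of the same response, stood at 164 CPM in both libraries and so did not share the difference.

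Antigen presentation by MHC class I differed less. Of 18 measured genes, 3 were at least 2-fold higher and none lower in the Pi16 group, with a median log2 ratio of 0.67. Psmb8, a subunit of the immunoproteasome, stood at 315 and 119.7 CPM, 2.63-fold higher (1.99 to 3.51). Tap1, a subunit of the peptide transporter, was 2.17-fold higher (1.28 to 3.87), and Tapbpl, a chaperone of peptide loading, was 3.80-fold higher on 28 and 4 UMIs (1.33 to 14.9). B2m, the light chain of class I molecules, was 1.33-fold higher (1.25 to 1.43), at 3064 and 2299.7 CPM. Of 4 MHC class II genes measured, none was higher and 1, H2-Aa, was lower. In the Clec3b and Dpt group 10 of 18 class I genes and 4 of 5 class II genes (H2-Aa, H2-Ab1, Cd74 and H2-DMa) were higher, the latter with a median log2 ratio of 1.21. Over all chosen cells 2 of 6 class II genes were higher and 1 lower, and the median moved from 0.088 to 1.23 where mixed cells were left out.

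The promoters of 4 of these genes are shown because they hold an interferon-stimulated response element, searched for as GAAA followed, after any 2 bases, by a further GAAA on either strand. Each is the 250 bases before the RefSeq start (GRCm38.p6), 5′ to 3′ on the strand of the gene, with matches in capitals. Cxcl10 is chr5:92348890-92349139 on the minus strand, with the match 213 to 204 bases before the start. Igtp is chr11:58199306-58199555 on the plus strand, with the match 34 to 25 bases before the start. Isg15 is chr4:156200819-156201068 on the minus strand, with 3 overlapping matches from 78 to 57 bases before the start. Gbp2 is chr3:142620413-142620662 on the plus strand, with the match on the opposite strand, 59 to 50 bases before the start.
Cxcl10: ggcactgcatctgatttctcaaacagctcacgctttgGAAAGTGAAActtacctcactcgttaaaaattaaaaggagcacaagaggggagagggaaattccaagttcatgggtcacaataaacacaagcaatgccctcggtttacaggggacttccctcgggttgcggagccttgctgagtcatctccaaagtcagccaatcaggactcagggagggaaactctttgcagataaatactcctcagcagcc
Igtp: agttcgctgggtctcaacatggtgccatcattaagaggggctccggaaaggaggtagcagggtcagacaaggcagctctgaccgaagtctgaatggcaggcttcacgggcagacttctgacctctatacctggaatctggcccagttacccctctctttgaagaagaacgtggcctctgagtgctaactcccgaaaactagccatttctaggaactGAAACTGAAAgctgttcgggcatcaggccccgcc
Isg15: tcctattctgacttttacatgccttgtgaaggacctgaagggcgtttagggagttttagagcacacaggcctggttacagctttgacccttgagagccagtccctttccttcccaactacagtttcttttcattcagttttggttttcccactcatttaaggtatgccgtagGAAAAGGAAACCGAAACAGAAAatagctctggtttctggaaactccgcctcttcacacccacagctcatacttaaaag
Gbp2: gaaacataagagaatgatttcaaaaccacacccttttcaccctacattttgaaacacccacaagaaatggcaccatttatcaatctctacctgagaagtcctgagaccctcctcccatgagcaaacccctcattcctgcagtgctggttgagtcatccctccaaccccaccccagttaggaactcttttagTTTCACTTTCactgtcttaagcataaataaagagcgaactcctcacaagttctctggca

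The element was found in the 250 bases before the start of 936 of 27025 genes (3.46%). It was in 10 of the 14 interferon gamma response genes with a RefSeq promoter (71.4%) and 9 of 19 type I response genes (47.4%). In the Pi16 group it was in 152 of 4106 tested genes with a promoter (3.70%), in 22 of 144 of those higher in Cherry_Positive (15.3%) and in 1 of 114 of those lower (0.877%). The letters TTCNNNGAA, a spaced palindrome known from promoters that respond to interferon gamma, were in 8 of 14 interferon gamma response genes (57.1%) and 2197 of 27025 genes (8.13%). The lists were chosen as interferon-responsive genes, and a match of letters is no measured binding.

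Several chemokines were higher in Cherry_Positive. Cxcl10 (chr5:92346638-92348889, minus strand), a ligand of the T cell receptor Cxcr3, stood at 793 CPM in the Pi16 group of Cherry_Positive and 21.2 CPM in that of Cherry_Negative, 37.3-fold higher (20.7 to 75.1). Cxcl9, a ligand of the same receptor, stood at 139.5 CPM against 0, at least 24.1-fold higher against the floor of 3 counts. Of 3 T cell chemokines measured, 2 were thus higher, and the remaining one, Cxcl16, stood at 108 and 116 CPM. Ccl2 (chr11:82035571-82037453, plus strand), the monocyte chemokine, stood at 1021 and 67.6 CPM, 15.1-fold higher (10.8 to 21.8). Ccl7, a neighbour of Ccl2 that acts on the same receptor, was 4.41-fold higher (3.74 to 5.24), at 1337 and 303 CPM. The 157 UMIs of Ccl7 in Cherry_Negative came from 9 of 105 cells. Ccl11 (chr11:82057823-82062955, plus strand) was 2.14-fold higher (1.86 to 2.46), so that 3 of the 4 measured chemokines for monocytes and eosinophils passed 2-fold, and Ccl8 stood at 44.1 and 52.1 CPM. Over all chosen cells Ccl11 was 1.63-fold higher, at 537 and 329 CPM. The neutrophil chemokine Cxcl1 stood at 1599 and 628 CPM, 2.55-fold higher (2.26 to 2.88), and Cxcl5 at 39.9 CPM against 0, at least 6.88-fold higher. Cxcl2 was 4.35-fold higher (1.86 to 12.4), but its 6 UMIs in Cherry_Negative came from 1 cell. Cxcl15, a chemokine of lung epithelium, went the other way at 3.15 and 56.0 CPM, 17.8-fold lower. It stood beside type 2 cell markers that summed to 153 and 1635 CPM in the same cells, whose part in it was not tested. Of 4 neutrophil chemokines, 3 were thus higher and 1 lower in the Pi16 group, against 1 higher (Cxcl1) and 1 lower (Cxcl15) in the Clec3b and Dpt group. Cxcl12, which retains leukocyte precursors and lymphocytes, stood at 733 and 682 CPM (ratio 1.08, 0.945 to 1.23).

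The chemokine signal was uneven between cells. In the Pi16 group of Cherry_Positive, 56 of 134 cells had a UMI of Cxcl10, and the 10 cells with most held 82.0% of its 756 UMIs, up to 110 in 1 cell. For Ccl2 the 10 cells with most held 80.7% of 973 UMIs. For Pi16, a gene by which these cells were chosen, the 10 cells with most held 31.3%, with a median of 8 UMIs over the group. The spread of Pi16 was therefore in part set by the choice. Of the 56 cells with Cxcl10, 26 also had Ccl2 and 28 also had Ccl11, while Ccl2 was in 46 and Ccl11 in 71 of the 134 cells. Cells with Cxcl10 were 41.8% in Cherry_Positive and 5.71% in Cherry_Negative, and 24.6% and 2.91% after each cell was thinned to 2000 UMIs. Among endothelial cells, with median depths of 3248 and 2486.5 UMIs, the unthinned shares were 31.6% and 4.41%, so UMIs of Cxcl10 were not limited to the Pi16 group.

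Il33 and Sfrp4 were higher in Cherry_Positive, and their levels were higher in the Pi16 group than in the Clec3b and Dpt group. Il33 (chr19:29925114-29960718, plus strand), an alarmin that acts on type 2 innate lymphoid cells, stood at 433 and 83.0 CPM, 5.22-fold higher (3.81 to 7.32). It was at 84.2 and 13.7 CPM in the Clec3b and Dpt group and at 10.3 and 2.28 CPM in alveolar fibroblasts. Cells with an Il33 UMI were 49.3% and 28.6% of the Pi16 group, or 33.6% and 14.6% after thinning, and 1.58% and 2.31% of endothelial cells. Sfrp4 was 4.13-fold higher (2.98 to 5.84) and was seen in 27.6% and 13.3% of the Pi16 group. The 10 cells with most held 84.3% of its 319 UMIs in Cherry_Positive, 87 of them in 1 cell. After thinning these shares were 16.4% and 10.7%, beside 0% and 0.0659% of endothelial cells before thinning. The type 2 immune niche list had 3 of 9 measured members higher (Il33, Ccl11 and the receptor subunit Il13ra1) and none lower. Tslp, another alarmin of stromal cells, stood at 77.6 and 73.4 CPM, and its interval included 1 (0.706 to 1.61).

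**Figure D4:**
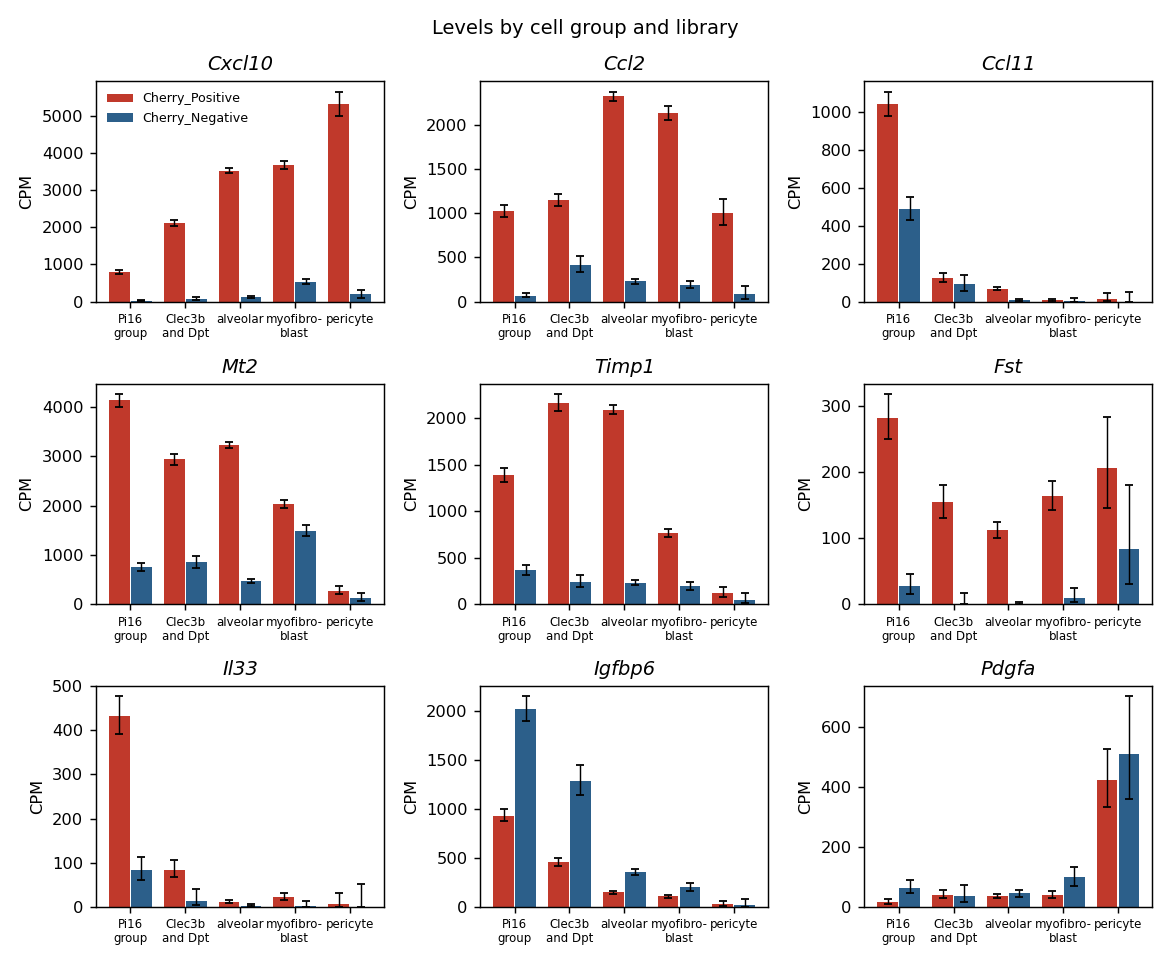
Bars give the level in CPM, from 0, in each cell group and library, with 95% counting intervals. The genes are Cxcl10, Ccl2, Ccl11, Mt2, Timp1, Fst, Il33, Igfbp6 and Pdgfa. Cxcl10 stood at 793 CPM in the Pi16 group and 3517 CPM in alveolar fibroblasts of Cherry_Positive, whereas Il33 stood at 433 and 10.3 CPM there.

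Among inflammatory cytokines and acute phase genes, 7 of 17 measured members were higher and 1 was lower in the Pi16 group. Serpina3n, a protease inhibitor of the acute phase, stood at 478 and 203 CPM, 2.36-fold higher (1.90 to 2.95). Ptx3, a secreted pattern recognition protein, was 9.19-fold higher (5.02 to 18.7), at 195 and 21.2 CPM. The 11 UMIs of Ptx3 in Cherry_Negative came from 1 cell, against 17 cells in Cherry_Positive. Lcn2, an iron-sequestering lipocalin, was 2.44-fold higher (1.45 to 4.33), at 85.0 and 34.8 CPM. Il6, the acute phase cytokine, stood at 605 and 446 CPM, 1.36-fold higher (1.16 to 1.59). Complement gave no member past 2-fold in either direction among 11 measured, and C3, its central component, stood at 1375 and 1247 CPM.

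Metal-binding and antioxidant genes had 4 of 15 measured members higher and none lower. Mt2 (chr8:94172664-94173568, plus strand), a metallothionein that binds zinc and copper, stood at 4138 and 755 CPM in the Pi16 group, 5.48-fold higher (4.94 to 6.10). Its 10 highest cells held 48.5% of the UMIs in Cherry_Positive, so it was more evenly spread than Cxcl10. Mt1 was 1.95-fold higher (1.82 to 2.08), at 4304 and 2213 CPM. Slc39a14, a zinc and iron importer, was 4.81-fold higher (2.20 to 12.5), and Sod2, the mitochondrial superoxide dismutase, was 3.47-fold higher (2.64 to 4.63). The Mt2 promoter window held 5 matches of TGCNCNC, the core of the metal response element, and that of Mt1 held 1. These short letters were in 47.2% of all promoters and in 8 of 13 genes of the list (61.5%), and the interferon-stimulated response element was in none of the 13.

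Of 17 collagens 1 was higher, Col8a1, a network-forming collagen of vessels, on 27 and 4 UMIs. Col1a1 stood at 3068 and 3329 CPM and Col3a1 at 5839.9 and 5121 CPM. Of 15 elastic fibre genes none passed 2-fold in the Pi16 group, and Fbln5, which organises elastic fibres, stood closest at 96.5 and 191 CPM, 1.98-fold lower (1.48 to 2.66). Of 17 matricellular genes 5 were higher and none lower, with a median log2 ratio of 0.03. Tnc, which codes for tenascin C, stood at 59.8 CPM against 0, at least 10.3-fold higher. Thbs1, which codes for thrombospondin 1, was 2.90-fold higher (2.26 to 3.77), and Fn1, fibronectin, 2.11-fold higher (1.73 to 2.58). Spp1, osteopontin, also passed, but 90% of its 180 UMIs in Cherry_Positive lay in 1 cell. Timp1, an inhibitor of metalloproteinases, stood at 1394 and 365 CPM, 3.82-fold higher (3.28 to 4.47), whereas Timp3 was lower at 782 and 1552 CPM, a 1.99-fold difference (1.80 to 2.20). The 10 cells with most held 51.0% of the 1329 UMIs of Timp1 in Cherry_Positive, 339 of them in 1 cell.

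Genes of myofibroblast activation were divided, with 5 of 12 higher and 2 lower. Acta2, which codes for smooth muscle actin, stood at 329 and 137 CPM, 2.40-fold higher (1.85 to 3.15), in 37 and 22 cells. Myl9, a light chain of smooth muscle myosin, stood at 77.6 and 176 CPM, 2.26-fold lower (1.65 to 3.12). The smooth muscle marker list, which includes Acta2 itself, summed to 544 and 311 CPM in the same cells. The part of smooth muscle RNA in these values was not tested.

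Signalling genes moved in both directions. Fst (chr13:114452290-114458951, minus strand), which codes for the activin antagonist follistatin, stood at 282 and 27.0 CPM, 10.4-fold higher (6.11 to 19.4). The 10 cells with most held 78.4% of its 269 UMIs in Cherry_Positive, 64 of them in 1 cell. Inhba, the activin A subunit that follistatin binds, was 3.59-fold higher on 33 and 5 UMIs (1.39 to 11.8). Tgfb1 was 2.36-fold higher (1.38 to 4.27), at 77.6 and 32.8 CPM, and Tgfb3 2.15-fold lower (1.53 to 3.03), at 69.2 and 149 CPM. Of 15 genes for BMP, activin and TGF-beta ligands and their antagonists, 4 were higher and 2 lower. Of 12 Wnt genes 3 were higher, all of them secreted antagonists. Sfrp1 stood at 222 and 94.6 CPM, 2.35-fold higher (1.72 to 3.28), and Frzb at 19.9 CPM against 0. Of 9 Hedgehog pathway genes 3 were lower and 1 was higher. The receptor Ptch1 stood at 42.0 and 88.8 CPM, 2.12-fold lower (1.36 to 3.32). Hhip, a Hedgehog-binding protein and target, stood at 29.4 and 88.8 CPM, 3.02-fold lower (1.85 to 5.02). Hhip belongs to the sum that marked myofibroblasts, which the adventitial sum had to exceed, so its level was in part set by the choice. The myofibroblast marker list, which holds Hhip, summed to 351 and 608 CPM in the same cells, and its part was not tested. Cdon, a co-receptor, was 2.84-fold lower (1.62 to 5.11). The gene counted as higher, Gli3, rested on 10 and 2 UMIs, and its interval included 1.

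Of 16 growth factors for epithelium and vessels, 4 were lower and 1 was higher. Pdgfa, a ligand for the PDGF receptor of fibroblasts, stood at 14.7 and 63.7 CPM, 4.34-fold lower (2.26 to 8.78). Angpt1, the ligand that stabilises vessels through Tie2, was 2.58-fold lower (1.40 to 4.83), at 21.0 and 54.1 CPM. Hgf, the hepatocyte growth factor, was 2.04-fold higher on 15 and 4 UMIs, with an interval that included 1. Aldh1a3, which makes retinoic acid, stood at 56.6 and 7.72 CPM, 7.33-fold higher (2.70 to 27.9). Of 7 retinoid handling genes measured in the Pi16 group, 2 were higher (Aldh1a2 and Aldh1a3) and none lower, with a median log2 ratio of -0.08. Over all chosen cells 1 of 8 was higher and 2 were lower (Rbp4 and Rarres1), with a median of -0.38. The immediate early genes, which dissociation of tissue can induce, had 1 of 20 members lower (Atf3) and none higher.

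**Figure D5:**
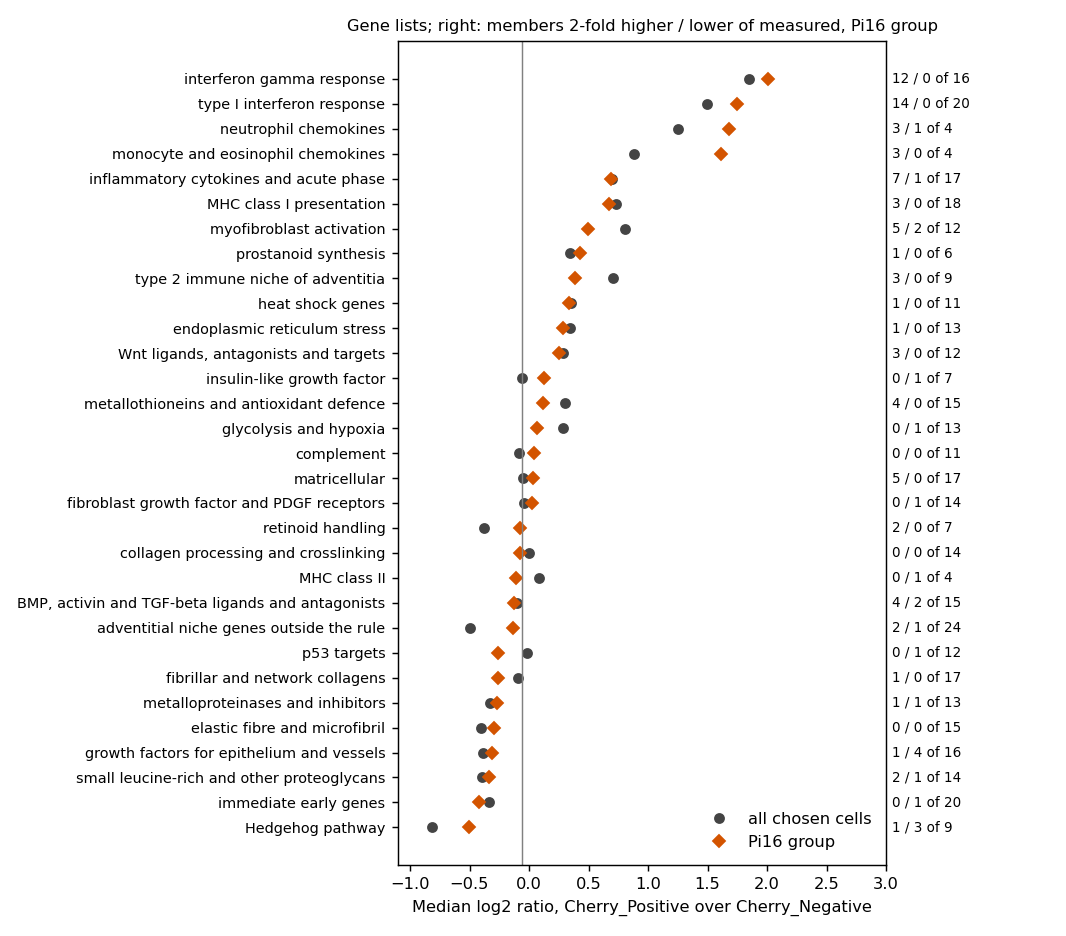
Points give the median log2 ratio of each gene list, Cherry_Positive over Cherry_Negative, for all chosen cells and for the Pi16 group, with the counts of members at least 2-fold higher and lower of those measured in the Pi16 group at the right. The interferon gamma response lay at 1.85 and 2.01 and the Hedgehog pathway at -0.82 and -0.50, beside a vertical line at the median of all genes of the Pi16 group, -0.06; lists with under 4 measured members are not drawn.

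Genes lower in Cherry_Positive included secreted and membrane proteins found in fibroblasts. Igfbp6 (chr15:102144362-102149511, plus strand), a binding protein for insulin-like growth factor 2, stood at 933 and 2026 CPM in the Pi16 group, 2.17-fold lower (1.98 to 2.38). Gsn (chr2:35256380-35307892, plus strand), which codes for the actin-severing protein gelsolin, stood at 11000 and 22255 CPM, 2.02-fold lower (1.97 to 2.08). Both were lower in the Clec3b and Dpt group too, Igfbp6 by 2.82-fold and Gsn by 2.90-fold. St8sia2, a sialyltransferase that makes polysialic acid, was 3.61-fold lower (2.23 to 5.97), at 28.3 and 102 CPM. Iyd, an iodotyrosine deiodinase, stood at 44.1 and 147 CPM, 3.33-fold lower (2.26 to 4.98), and Peg3, an imprinted zinc finger gene, at 40.9 and 133 CPM, 3.26-fold lower (2.17 to 4.95). Wfdc1, a secreted protein with a whey acidic protein domain, was 2.76-fold lower (1.75 to 4.39) in the Pi16 group and stood at 5.20 and 4.57 CPM, or 5 UMIs and 1, in the Clec3b and Dpt group.

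Several genes that led the lower side over all chosen cells did not pass 2-fold in the Pi16 group. Dpep1, a membrane dipeptidase, was 2.54-fold lower over all chosen cells and 1.80-fold lower in the Pi16 group. Fbln5, Pcolce2 (an enhancer of procollagen processing) and Gstm1 (a glutathione transferase) were 2.73, 2.32 and 2.26-fold lower over all and 1.98, 1.90 and 1.95-fold lower in the Pi16 group. Clu, which codes for the chaperone clusterin, stood at 116 and 295 CPM over all chosen cells but at 76.6 and 44.4 CPM in the Pi16 group, and so turned direction. Fxyd3, Krt19 and Upk3b, genes of epithelium or mesothelium, stood at 17.2 and 140.0, 12.4 and 78.0, and 26.8 and 121 CPM over all chosen cells. In the Pi16 group they gave at most 3 UMIs in either library, so those differences lay outside it.

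The acute phase gene Saa3 and the B cell chemokine Cxcl13 also depended on which cells were taken. Saa3 stood at 8180.2 CPM in Cherry_Positive and 773 CPM in Cherry_Negative in the Clec3b and Dpt group, 10.6-fold higher (9.09 to 12.4). In the Pi16 group it stood at 913 and 516 CPM, 1.77-fold higher (1.54 to 2.04). There 1 cell held 56.4% of the UMIs in Cherry_Positive and 1 cell 94.4% in Cherry_Negative, and cells with a UMI were 77 of 134 and 4 of 105. Saa genes are near copies of each other, so the reads of Saa3 may be shared with them. Cxcl13 stood at 483 and 9.15 CPM in the Clec3b and Dpt group but at 76.6 and 57.9 CPM in the Pi16 group, where the interval of the ratio included 1 (0.853 to 2.1). Over all chosen cells 10 of 13 cell cycle genes were higher in Cherry_Positive, but 3 were measured in the Pi16 group and none passed 2-fold. One mixed cell of 61192 UMIs held 140 of the 413 cycle UMIs of all chosen cells and 151 UMIs of carcinoma-like markers.

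In alveolar fibroblasts of the same libraries, 16 of 18 genes of the interferon gamma response and 15 of 22 of the type I response were higher in Cherry_Positive and none was lower. Of 16 metal-binding and antioxidant genes 5 were higher there and none was lower. Cxcl10 stood at 3517 and 119 CPM in alveolar fibroblasts, 29.5-fold higher in Cherry_Positive (25.2 to 34.8), against 37.3-fold in the Pi16 group (20.7 to 75.1). Mt2 was 6.94-fold higher in alveolar fibroblasts (6.40 to 7.54) against 5.48-fold (4.94 to 6.10). Ccl7 stood at 915 and 12.1 CPM, 75.4-fold higher (46.3 to 132), against 4.41-fold in the Pi16 group (3.74 to 5.24), whose level in Cherry_Negative was 303 CPM. That level came from 9 of 105 cells, with up to 51 of the 157 UMIs in 1 cell. Saa3 was 7.81-fold higher (7.39 to 8.26) in alveolar fibroblasts, and Gsn 3.00-fold lower (2.92 to 3.07) against 2.02-fold (1.97 to 2.08). Of 18 genes of MHC class I presentation, 12 were higher in alveolar fibroblasts and 3 in the Pi16 group. Of all genes with at least 10 UMIs, 7.55% were higher and 9.39% lower in alveolar fibroblasts, and 12% higher and 9.32% lower in the Clec3b and Dpt group. Of 8839 alveolar genes with at least 30 UMIs, 5.97% were higher and 6.13% lower. With 1 library per group the difference between these cell groups was not tested, and its intervals cover counting error alone.

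RNA of other lineages differed between the libraries in the Pi16 group. Endothelial markers summed to 319 CPM in Cherry_Positive and 618 CPM in Cherry_Negative, leukocyte markers to 35.7 and 164 CPM, and erythroid markers to 142 and 21.2 CPM. Of the 12 leukocyte markers 8 were seen in Cherry_Positive and 5 in Cherry_Negative, and 0.746% and 8.57% of the cells had at least 3 of their UMIs. Ptprc, Cd3e, Nkg7 and Tyrobp had no UMI in either library, while Cd79a and Fcer1g had 1 UMI each in Cherry_Positive, and Cd52 and Coro1a had 1 to 2 UMIs in each library. Lyz2, which type 2 alveolar cells also express, gave 19 of the 34 leukocyte marker UMIs in Cherry_Positive and 78 of 85 in Cherry_Negative. Mesothelial markers summed to 25.2 and 36.7 CPM and carcinoma-like markers to 13.6 and 13.5 CPM. The markers of the Pi16 group itself summed to 11096 and 13383 CPM. The part of these lineages in the differences above was not tested. For Pi16, cells with a UMI were 88.8% and 93.3% of the group, beside 2.37% and 2.64% of endothelial cells, which should lack it. The group was chosen in part by Pi16, so its own shares describe the choice.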

How the data were processed

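Single-cell RNA-seq of CD45- lung cells gave 1 library per group. The deposited matrices hold whole-number counts of UMIs per gene and cell, made per the submitters' processing notes with Cell Ranger 2.1.1 against mm10; the same notes name Seurat 4.0.2 and R 4.0.3 without saying for which step. Here the matrices were read with scanpy 1.11.5, numpy 2.4.6 and scipy 1.17.1 in Python 3.11.15, cells were chosen by the marker rule, and UMIs were summed per library and cell group. Ratios of CPM have exact conditional binomial intervals, shares Clopper-Pearson intervals, and a gene with 0 UMIs in 1 library a floor of 3 counts, all at 95%. PCR duplicates were removed by UMI in the count, and intervals leave out all but counting error. Free RNA from broken cells was not removed. Scrublet called 0.226% and 0.249% of cells as doublets, none of them chosen, which is too few to trust, so cells with 25 or more UMIs of another lineage were set apart. Levels are per 3′ molecule, not per length.

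The members, gene lists and rules were chosen with earlier results of these data known, and the 2 groups of chosen cells were defined after their values were seen. Genes named by size were the 15 highest and 15 lowest outside the rule by the interval bound nearest 1, with at least 30 UMIs, 50 CPM in either library and 10 cells, no cell with over 50% of the UMIs, and a lower level outside the mesenchymal cells; mitochondrial, ribosomal, haemoglobin and immunoglobulin genes were left out, and 1 of the 15 highest is not reported here. Others are list members, markers, the rule genes or the leading genes between cell groups. Alternatives to the cell filter, the marker sum, doublets, cell weighting, scaling, free RNA, low counts and single cells were run. Gene positions are from GENCODE M21 and promoters from RefSeq (GRCm38.p6). The procedure was tested on simulated data.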

Additional observations from a re-analysis of the deposited data

How the results depend on the processing

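No paired analysis was possible because each group was 1 library, and for the same reason none could be left out. Under the other settings that changed the cells, the scaling, the weighting, free RNA or single cells, the genes higher in Cherry_Positive numbered 327 to 468 and those lower 287 to 418, against 404 and 345. With genes of at least 10 UMIs they were 751 and 846. The chosen share of Cherry_Positive became 14.7% with an adventitial sum of at least 8, and 12.7% (Cherry_Negative 5.37%) where the sum was at least 2 times the next. Leaving out cells with 3 or more UMIs of other lineages left 3.79% and 0.0356% of cells, 67 cells and 1 cell, too few for values of genes. Of the alternatives added after seeing the data, the Pi16 group alone gave 209 genes higher, 158 lower, 7.57% and 3.74% of cells, and 19 genes above the other groups. The Clec3b and Dpt group alone gave 217 lower, 9.66% and 2.03%, and 1. Log2 ratios that turned sign were Cenpf (-0.40) and Krt8 (-0.52) with cells weighted equally, Krt8 (-0.11) without its highest cell, and Clu (0.067), H2-Aa (0.41) and Krt8 (-0.057) without mixed cells. In the Pi16 group they were Clu (0.79), Dpp4 (1.93), Kdr (0.12), Msln (0.12) and Ptges (-0.39). In the Clec3b and Dpt group they were Cxcl2 (-0.47), Entpd2 (1.03), H2-Aa (1.51), Hhip (0.085), Krt8 (-2.14), Pdgfa (0.11) and Wfdc1 (0.18). The cause was not tested. Low counts limit single genes: Gli3 (10 and 2 UMIs in the Pi16 group) and Hgf (15 and 4) have intervals that include 1.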
